A study of Ovis aries with 16 samples.

Results

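The miR-23 and miR-27 rows of the miRNA table are MIR27A, MIR23A and MIR23B, taken by name from the deposited table and numbering 3 of its 105 miRNA genes. They were followed through 16 small RNA libraries from 8 female Suffolk sheep. Every animal gave 1 piece of liver, cut at the tip of its left lobe, and 1 of vastus lateralis, a thigh muscle. The 4 BPA animals (910, 918, 977 and 984) were born to ewes injected under the skin every day with 0.5 mg/kg/day of bisphenol A (BPA), a building block of plastics that can act like an oestrogen, in corn oil over gestation days 30 to 90. The 4 control animals (902, 908, 924 and 928) were born to ewes given corn oil alone. Tissue was taken from all offspring when about 21 months old and fasted for 48 h, 24 h after the second of 2 prostaglandin F2α injections given 11 days apart. The 4 groups were BPA muscle, control muscle, BPA liver and control liver, with 4 animals each.

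In mammals miR-23a and miR-27a are cut from a single primary transcript that also carries miR-24, and miR-23b sits in a sister cluster together with miR-27b and a second copy of miR-24. Mature miRNAs guide the silencing complex to messenger RNAs through a short seed at their 5′ end. In mouse and human cells miR-27a is known to repress PPARG, the master factor of fat cell formation, and other genes of lipid handling. In mouse muscle miR-23a is known to repress the ubiquitin ligases that drive muscle wasting, and miR-27a to repress myostatin, which limits muscle growth. The miR-23 and miR-27 families are also known from mouse endothelium, where they act on vessel growth. In RefSeq's annotation of the assembly ARS-UI_Ramb_v3.0, MIR23A and MIR27A are neighbours starting within 10 kb of each other and of the protein-coding gene ZSWIM4, and MIR23B lies inside AOPEP, which encodes an aminopeptidase. MIR24 and MIR27B had no row among the miRNA genes, and that annotation has no gene under these names either. Whether they were expressed here cannot be read from the missing rows. No lncRNA row overlapped a member or started within 10 kb of one. The rows are miRNA genes, so the 2 arms of each hairpin were not separated. The mature miR-23a and miR-23b are nearly identical, as are miR-27a and miR-27b, so reads could have been split between paralogs or lost and the values of all 3 rows are uncertain to that extent.

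Reads assigned to miRNAs numbered 596919 to 1044886 in BPA muscle, 471691 to 559705 in control muscle, 578150 to 1383538 in BPA liver and 94393 to 240815 in control liver. The control livers were thus the shallowest libraries. With every liver thinned to the depth of the shallowest, the log2 differences between BPA and control liver were 0.26 for MIR27A, -0.14 for MIR23A and -0.19 for MIR23B, and 8 miRNAs were called in liver, against 9 at full depth. In the shallowest of them, that of animal 902, MIR27A had 778 reads, or 0.824% of the miRNA reads with an exact Clopper-Pearson 95% interval of 0.768% to 0.884%. This interval covers counting error only, since the reads carry no molecular identifiers that are known here. The tissue labels were set against defining miRNAs. MIR133, a miRNA of striated muscle, took 43.6% to 57.4% of the miRNA reads in the 8 muscle libraries, and MIR133 was at 0.0332% to 0.217% in the livers. MIR148A and MIR194, both abundant in hepatocytes, together took 11.1% to 19.2% in BPA liver and 12.7% to 15.9% in control liver, but 0.201% to 0.366% in muscle. MIR133 was 1 of 5 muscle fibre names, and MIR1, MIR206, MIR208B and MIR499 had no row. MIR148A and MIR194 were 2 of 4 hepatocyte names, and MIR122 and MIR192 had no row. Shares of miRNA reads are therefore shares of the reads of the 105 listed genes only. In bulk tissue such as this, fewer cells of a type and less RNA per cell cannot be told apart.

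Among the 105 listed genes all 3 miRNAs were moderately abundant in both tissues. MIR27A averaged 0.419% ± 0.093 of the miRNA reads in muscle and 0.890% ± 0.221 in liver (SD, n = 8 libraries each), ranking 24 and 21 of 105 by mean share. MIR23B averaged 0.502% ± 0.0923 in muscle and 0.769% ± 0.126 in liver, with ranks 22 and 26. MIR23A was the least abundant of the 3, with 0.296% ± 0.055 in muscle and 0.517% ± 0.106 in liver and rank 28 in both. Within every library MIR27A and MIR23B each had more reads than MIR23A, by ratios of at least 1.16 and 1.15. The MIR27A/MIR23B ratio averaged 0.834 ± 0.103 in muscle and 1.18 ± 0.325 in liver (SD, n = 8 each). The liver mean rests on the livers of 910 and 918 (1.75 and 1.61), and the other 6 livers averaged 1.01, close to equal levels. It was below 1 in 7 of 8 muscle libraries and above 1 in 6 of 8 livers, so the order of these 2 was not fixed within either tissue. The ratio was lower in muscle than in liver in 7 of 8 animals, a log2 difference of -0.46 (two-sided exact permutation of within-animal signs, p = 0.0156, and 0.105 after Benjamini-Hochberg adjustment over the 27 exact tests made on the members). Such an order is one of read counts, because adapter ligation depends on the sequence and the reads were not converted to molecules.

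Neighbours in rank did not stand apart from the members. In muscle MIR27A stood just below MIR29A (0.472% ± 0.0479) and just above MIR10B (0.401% ± 0.0965), both within 1 SD of the more variable miRNA of the pair. In liver it stood below MIR191 (1.19% ± 0.570) and above MIR127 (0.850% ± 0.130), again within that SD. Pooled over the groups, the members varied less between animals than the median miRNA, but MIR27A spread widely in BPA liver. On normalized counts its SD there was 28.1% of its mean, against 10.6% to 17.8% in the other groups. The pooled within-group SD of log2 values was 0.27 for MIR27A, 0.24 for MIR23A and 0.19 for MIR23B, ranks 18, 14 and 6 from the smallest among 53 miRNAs with a mean value of at least 50, against a median of 0.31.

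The direction of the tissue difference depended on the scale. The size factors of the deposited normalized counts were taken to be set within each tissue, which no source used here states. On these values MIR27A differed by -0.29 ± 0.14 log2 units (muscle minus liver, SE), MIR23A by 0.00055 ± 0.13 and MIR23B by 0.18 ± 0.11. None of the 3 passed limma's test (Benjamini-Hochberg adjusted p = 0.0594, 0.9967 and 0.1628 over the 76 miRNAs tested), although 82.9% of those miRNAs did. This fit had no term for the animal, although each animal gave both tissues. With the animal as a replicate block limma's adjusted p was 0.1148, 0.9974 and 0.2150. With size factors set by the median of ratios across liver and muscle together the same differences were 0.30, 0.59 and 0.76, and as shares of all miRNA reads they were -1.08, -0.79 and -0.62. MIR23A and MIR23B passed limma's test in both settings and MIR27A as a share, and MIR27A also passed on the deposited scale without animal 984 (-0.40) or 928 (-0.37). Under edgeR with TMM factors MIR27A was instead higher in muscle, by 0.46 (edgeR adjusted p = 0.00453). MIR133 alone fills much of each muscle library, and the median of all tested miRNAs moved with the scale, to -0.73 on the deposited values, -0.15 after rescaling and -1.52 for shares. Relative to that median MIR27A stood 0.44, MIR23A 0.73 and MIR23B 0.90 log2 units higher in muscle on the deposited scale. This relative position had the same sign in all 24 alternatives for MIR23A and MIR23B and in 23 of 24 for MIR27A, which was at -0.06 under quantile normalization. As a share of miRNA reads MIR27A was lower in muscle than in liver in 8 of 8 animals (exact permutation p = 0.0078, the smallest 8 pairs allow). For MIR23A and MIR23B this held in 7 of 8 animals each (exact permutation p = 0.0156 for both). All 3 adjusted values were 0.105 over the 27 tests, so none passed the correction.

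**Figure D1:**
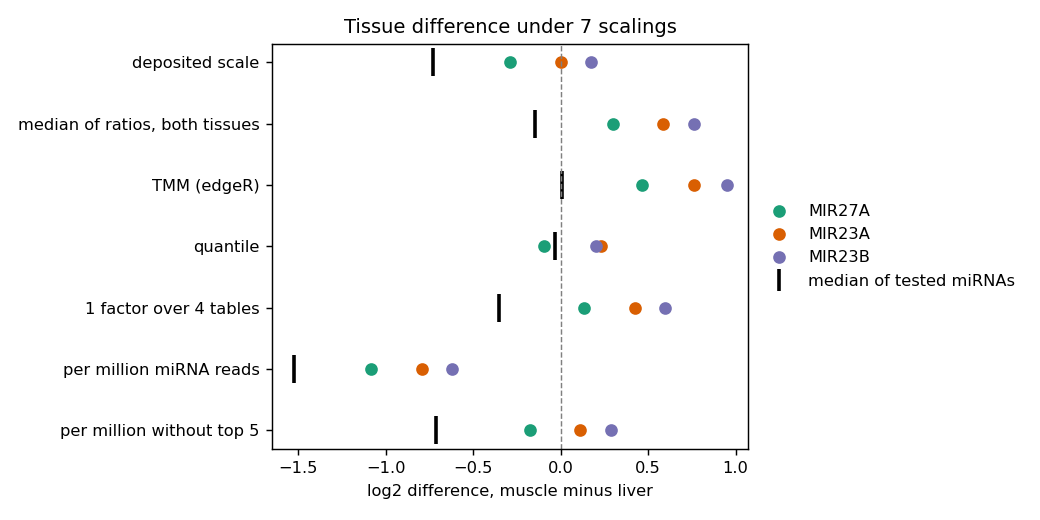
Log2 difference between muscle and liver (x axis, muscle minus liver, all 16 libraries) under 7 scalings (rows), with a point for each of the 3 miRNAs and a bar for the median of the tested miRNAs. The points lie on either side of 0 depending on the scaling, with MIR27A running from -1.08 to 0.46, and to the right of the bar in every row but quantile for MIR27A.

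The comparison of BPA with control livers asks whether exposure before birth left a mark on these miRNAs in the adult liver. MIR27A had 3749, 4631, 2850 and 2483 normalized counts in the BPA livers of 910, 918, 977 and 984, against 2721, 2945, 3050 and 2386 in the control livers of 902, 908, 924 and 928. Animals 910 and 918 lay above every control and the other 2 inside the control range, so the groups overlapped. MIR23A, its neighbour in the genome, showed the opposite arrangement among the BPA livers. It had 1227, 1722, 1966 and 2124 normalized counts in BPA livers, against 2029, 1741, 1988 and 1540 in control livers, in the same order of animals. Here 910 was the lowest of all 8 livers and 984 the highest. MIR23B had 2137, 2879, 2646 and 2451 normalized counts in BPA livers, against 2445, 2738, 3390 and 2725 in control livers. Animal 910 alone lay outside the control range, below it.

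No member passed the test in liver, where 9 of 78 tested miRNAs, or 11.5%, did (the number called was 5 without animal 910, 4 without 918 and 15 without 984). MIR27A averaged 3428 ± 962 in BPA liver and 2776 ± 294 in control liver (SD, n = 4 each), a log2 difference of 0.27 ± 0.23 (SE; 95% interval -0.23 to 0.76; limma adjusted p = 0.5178). MIR23A averaged 1760 ± 392 in BPA liver and 1824 ± 228 in control liver, a log2 difference of -0.07 ± 0.23 (95% interval -0.57 to 0.43; limma adjusted p = 0.9069). MIR23B averaged 2528 ± 314 in BPA liver and 2824 ± 400 in control liver, a log2 difference of -0.16 ± 0.20 (95% interval -0.59 to 0.28; limma adjusted p = 0.7115). Leaving out 1 animal moved the MIR27A difference to 0.11 without 918 and to 0.41 without 984, and that of MIR23A to 0.0899 without 910 and -0.17 without 984. The intervals leave room for changes in either direction. Exact permutation of treatment over the animals gave p = 0.286, 0.743 and 0.343 for MIR27A, MIR23A and MIR23B, where 4 against 4 animals can go no lower than 0.0286. With 1 size factor per library over all 4 deposited RNA tables, every member was higher in BPA liver, MIR27A by 1.74, MIR23A by 1.39 and MIR23B by 1.31 log2 units (limma adjusted p = 0.000869, 0.00691 and 0.00799). The median of all tested miRNAs was at 1.51 on that scale, so against this shift MIR27A was above the typical miRNA and the other 2 below it.

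**Figure D2:**
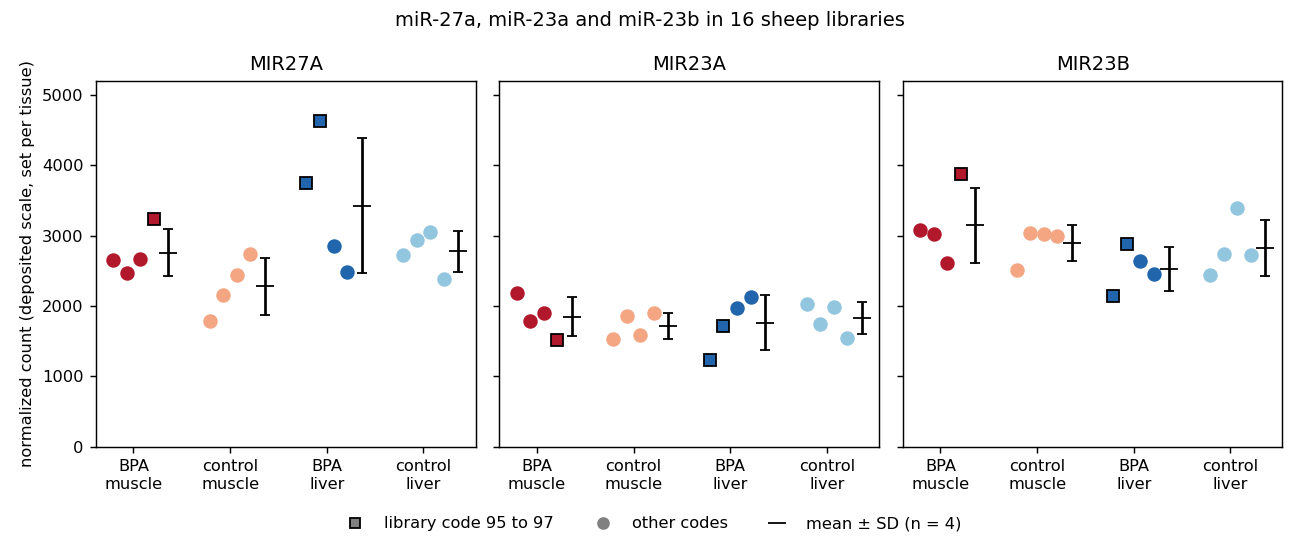
Deposited normalized counts (y axis, from 0) of the 3 miRNAs in each library of BPA muscle, control muscle, BPA liver and control liver, with the mean and SD of 4 animals beside the points. Size factors were taken to be set within each tissue, which no source used here states, so heights are to be compared only within a tissue. Squares are the libraries coded 95 to 97, which hold the 2 highest MIR27A values in liver (3749 and 4631) and the highest in muscle (3236).

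In muscle the same comparison gave MIR27A 2655, 2465, 2666 and 3236 normalized counts in the BPA animals 910, 918, 977 and 984, against 1785, 2155, 2443 and 2734 in the control animals 902, 908, 924 and 928. All 4 BPA values exceeded 3 of the 4 controls, and the groups overlapped through control 928. MIR23A had 2186, 1781, 1906 and 1514 normalized counts in BPA muscle, against 1526, 1857, 1582 and 1900 in control muscle. The BPA animals held both the highest value, in 910, and the lowest, in 984. MIR23B had 3078, 3018, 2610 and 3884 normalized counts in BPA muscle, against 2507, 3043, 3029 and 2996 in control muscle. Animal 984 stood above all the others.

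None of the 3 passed in muscle, and neither did any other miRNA: 0 of 70, or 0.0%, were called by limma, with 3 at an unadjusted p under 0.05, and edgeR and DESeq2 also called 0. MIR27A averaged 2756 ± 333 in BPA muscle and 2279 ± 405 in control muscle (SD, n = 4 each). Its log2 difference was 0.28 ± 0.15 (SE; 95% interval -0.04 to 0.61; limma adjusted p = 0.7060), and by p it ranked 8 of the 70. Without control animal 902 the difference was 0.17. MIR23A averaged 1847 ± 279 in BPA muscle and 1716 ± 190 in control muscle, a log2 difference of 0.10 ± 0.15 (95% interval -0.21 to 0.41; limma adjusted p = 0.8461). MIR23B averaged 3148 ± 533 in BPA muscle and 2894 ± 259 in control muscle, a log2 difference of 0.11 ± 0.14 (95% interval -0.19 to 0.41; limma adjusted p = 0.8407). Exact permutation of treatment over the animals gave p = 0.171, 0.571 and 0.371 for MIR27A, MIR23A and MIR23B in muscle. As a share of miRNA reads the MIR27A log2 difference was 0.40 (exact permutation p = 0.0857, and 0.452 adjusted over the 27 tests). Without the muscle library of animal 984, coded 97, the MIR23B difference on normalized counts was 0.0047 and that of MIR27A 0.20. No other muscle library has a code of 95 to 97.

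Whether the BPA effect differed between the tissues was tested as an interaction over all 16 libraries, as the effect in muscle minus that in liver. It was 0.02 ± 0.27 log2 units for MIR27A, 0.17 ± 0.26 for MIR23A and 0.27 ± 0.23 for MIR23B (SE; limma adjusted p = 0.9822, 0.7876 and 0.5411). No member was called, and 2 of 76 miRNAs, or 2.63%, were; with the animal as a replicate block the number called was 0, and leaving out single animals gave 0 (910, 918, 924 or 928), 1 (902, 908 or 977) or 9 (984). For MIR27A the sign turned under edgeR (-0.0040) and quantile normalization (-0.11), and leaving out single animals gave -0.21, without 984, to 0.22, without 918. With 1 size factor over the 4 tables the interactions were -1.96, -1.80 and -1.71 and all 3 passed limma's test, where the median of all tested miRNAs was at -1.98.

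**Figure D3:**
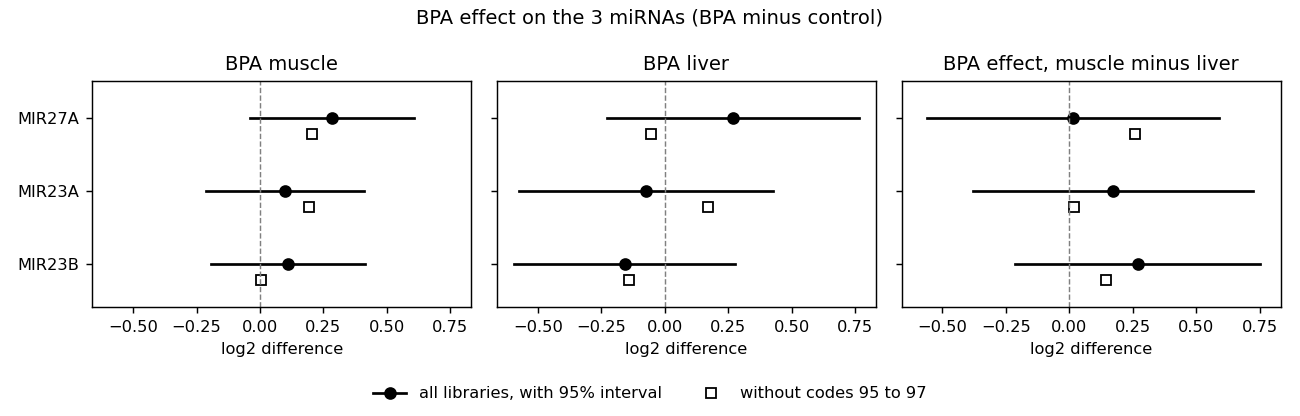
Log2 difference between BPA and control (x axis) for each miRNA in muscle, in liver and as the muscle effect minus the liver effect; filled points are the limma estimates with 95% intervals, open squares the estimates without the 3 libraries coded 95 to 97. All 9 intervals include 0, and in liver MIR27A lies at 0.27 with those libraries and at -0.05 without them.

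The balance of the cluster mates MIR27A and MIR23A within a library does not depend on any size factor. The MIR27A/MIR23A ratio of reads was 3.06, 2.69, 1.45 and 1.17 in the BPA livers of 910, 918, 977 and 984, against 1.34, 1.69, 1.53 and 1.55 in the control livers of 902, 908, 924 and 928. In muscle it was 1.21, 1.38, 1.40 and 2.14 in the BPA animals, against 1.17, 1.16, 1.54 and 1.44 in the control animals, in the same order. The 3 high ratios belonged to the livers of 910 and 918 and the muscle of 984, and the other tissue of each of these animals had no high ratio: the muscles of 910 and 918 had 1.21 and 1.38, inside the control muscle range, and the liver of 984 had 1.17, below all 4 control livers. These 3 libraries carry the codes 95, 96 and 97 in the labels; the codes of the other libraries run up to 79 or lie above 97. What the code numbers stand for is not stated in the labels.

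The ratio was 2.14 to 3.06 in the 3 libraries coded 95 to 97 and 1.16 to 1.69 in the other 13, with no overlap. That split was noticed after the values were seen and is given with no test. All 3 libraries are BPA samples, so the code and the treatment cannot be told apart in them. Among the other libraries the 3 BPA muscles had ratios of 1.21 to 1.40, against 1.16 to 1.54 in the 4 control muscles. The 2 BPA livers had 1.45 and 1.17, against 1.34 to 1.69 in the 4 control livers. MIR27A averaged 4190 normalized counts in the 2 livers coded 95 and 96, against 2739 in the other 6 livers, and lay above all of those 6 in both. MIR23A averaged 1474 against 1898, but it was low in the liver coded 95 alone (1227), since the liver coded 96 had 1722, inside the 1540 to 2124 of the other 6. In muscle the library coded 97 had 3236 for MIR27A and 1514 for MIR23A, against means of 2415 and 1820 in the other 7. MIR23B, from the other cluster, went with neither partner in all 3 libraries. The MIR27A/MIR23B ratio was 1.75 and 1.61 in the livers coded 95 and 96, against 0.876 to 1.11 in the other 6 livers, but 0.833 in the muscle coded 97, against 0.708 to 1.02 in the other 7.

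Tested over animals with all libraries, the log2 MIR27A/MIR23A ratio was higher by 0.18 in BPA than control muscle and by 0.34 in BPA than control liver, and neither passed (exact permutation p = 0.486 and 0.4, and 0.624 and 0.568 adjusted over the 27 tests). The liver difference was 0.12 without 910, 0.18 without 918 and 0.58 without 984. Without the libraries coded 95 to 97 these differences were 0.01 in muscle and -0.23 in liver. The single differences in liver were also -0.05 for MIR27A and 0.17 for MIR23A without those libraries, with 2 BPA against 4 control livers, and the number of miRNAs called in liver was 3. The liver differences of both cluster mates thus change sign with these libraries.

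**Figure D4:**
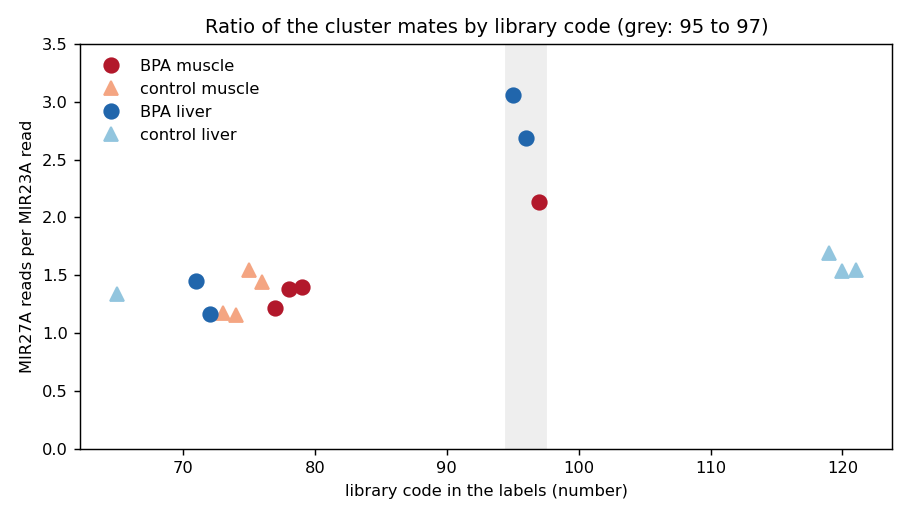
MIR27A reads per MIR23A read (y axis, from 0) in each of the 16 libraries against the code number in its label (x axis); circles are BPA and triangles control libraries. The 3 libraries coded 95 to 97 (grey band) lie at 2.14 to 3.06 and the other 13 at 1.16 to 1.69.

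Each library's deviation from its group mean on the log2 scale was set against that of other miRNAs. Across 16 libraries MIR27A and MIR23A had a Pearson r of -0.25. Without codes 95 to 97, with group means taken anew over the 13 remaining libraries, the r was 0.52. Every r without those codes was computed in this way, which left BPA liver centred on 2 libraries. Those codes stand out by their MIR27A/MIR23A ratio, so the change in r restates that observation and adds nothing to it. MIR27A and MIR23B had an r of 0.46 over 16 libraries and 0.54 over 13. Values of one library share its size factor and depth, and these correlations are descriptions only. The miRNAs whose deviations went most closely with MIR27A were MIRLET7C (r = 0.67), MIRLET7D (0.65) and MIR150 (0.64), of which the first 2 had an r of only 0.21 and 0.22 without codes 95 to 97 and MIR150, a lymphocyte miRNA, 0.54. The most opposed were MIR374A (r = -0.92), MIR21 (-0.77) and MIR17 (-0.74). MIR374A remained opposed at -0.84 over the 13 libraries, against -0.55 for MIR21 and -0.36 for MIR17. MIR374A deviated by -0.98 in the muscle coded 97, by -0.32 and -0.996 in the livers coded 95 and 96, and by 0.37 and 0.94 in the other 2 BPA livers. By the whole profile over both tissues, the 5 nearest to MIR27A were MIR26A, MIRLET7F, MIRLET7G, MIR99A and MIR23B, with root-mean-square differences of 0.27, 0.29, 0.34, 0.35 and 0.35 log2 units over 16 libraries.

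**Figure D5:**
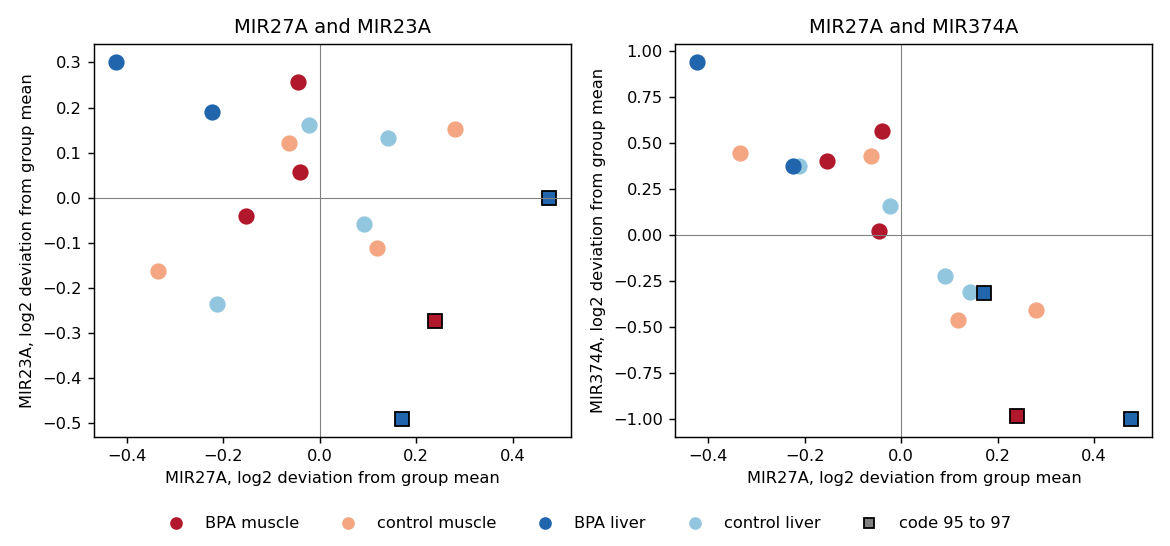
Log2 deviation of each library from its group mean for MIR27A (x axis) against MIR23A (left) and MIR374A (right); colours are the 4 groups and squares the libraries coded 95 to 97. In the squares MIR27A is above its group mean and MIR23A at or below it (r = -0.25 over 16 libraries, 0.52 over the other 13). MIR374A is lower where MIR27A is higher (r = -0.92 and -0.84). The r over 13 libraries uses group means of those libraries alone, not the means plotted here.

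Other miRNAs known for the same roles were described from lists. Of 25 names known from lipid handling and fat cell formation 13 had rows and were tested, MIR27A among them. In muscle 0 were called in either direction, with a median of -0.09 against 0.01 for all miRNAs tested, and in liver 0 rose and 1, MIR26B, fell, with a median of 0.05 against 0.05; 1 of 13 is close to the 11.5% called among all miRNAs in liver. The 27 names known from muscle growth and wasting matched 15 rows, of which 14 were tested, among them MIR23A and MIR27A. Copies of MIR181A and of MIR29B counted as separate rows, so rows and names are not the same number here. None was called in muscle, where the median was -0.04, and in liver 1 rose, MIR125B, and 0 fell, with a median of -0.06; 1 of 14 is no more than the 11.5% of all miRNAs. Of 19 names known from vessel growth 7 had rows and 6 were tested, all 3 members included. None was called in either tissue, and the medians were 0.11 in muscle and 0.13 in liver.

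Levels of other cell types were summed from their marker miRNAs. For endothelium 1 of 3 names had a row, MIR221, at 0.0435% to 0.0889% of the miRNA reads in BPA muscle, 0.0490% to 0.0640% in control muscle, 0.119% to 0.209% in BPA liver and 0.0968% to 0.219% in control liver. For fibroblasts and smooth muscle 3 of 5 names summed to 1.55% to 4.22% in BPA muscle, 2.55% to 4.78% in control muscle, 8.49% to 17.2% in BPA liver and 8.11% to 13.9% in control liver. These groups overlapped in each tissue. The epithelial markers (3 of 5 names) were at 0.410% to 0.572% in BPA liver and 0.125% to 0.383% in control liver, without overlap. The 3 markers differed among themselves: MIR200B rose by 2.07 log2 units in BPA liver (limma adjusted p = 0.000708), while MIR200C differed by 0.54 and MIR200A by -0.14 (limma adjusted p = 0.680 and 0.903). Their part in the liver values of the members was not tested. For leukocytes 1 of 4 names had a row, MIR150, at 0.270% to 0.492% in BPA muscle, 0.227% to 0.311% in control muscle, 0.067% to 0.134% in BPA liver and 0.0565% to 0.154% in control liver. None of the 3 erythroid names had a row.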

How the data were processed

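Total RNA from 16 tissue samples was made into small RNA libraries with a NEBNext kit, per the labels' protocols. Per the submitters' processing notes, the tools included STAR 2.6.0c, cutadapt 3.2 and featureCounts 1.6.1, with no role stated. No source used here gives the build, the annotation or how size factors were made. The authors deposited normalized counts, a signal per gene, in 4 tables. Every miRNA value was a whole multiple of 1 step per library within 0.001 (100%), which gave the reads used for shares, ratios and the count tests. Multiples were too few at low values to be certain of the step.

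The main test was limma 3.58.1 in R 4.3.3, with its trend option, on log2(value + 1) over all miRNAs with a mean of at least 5, two-sided, with Benjamini-Hochberg adjustment and a threshold of 0.05. Fold changes on this scale understate the change of low miRNAs. edgeR 4.0.16 and DESeq2 1.42.0 on the recovered reads, other scalings, filters and pseudocounts, and leaving out each animal were alternatives. Exact permutations used scipy 1.17.1. The fit was tested on simulated data. The animal's number pairs its liver with its muscle library; their deviations correlated from -0.68 to 0.44 over 76 miRNAs.

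The members, lists and tests were chosen with earlier results of these data known. Besides the members, the text names the miRNAs most like MIR27A (5 by profile, 3 highest and 3 lowest by r), its neighbours in rank, called list members and markers. No sequence or coordinate is given.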

Additional observations from a re-analysis of the deposited data

Results flagged for a closer look

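MIR23B in control muscle had 1 animal apart from the other 3. Animal 902 had 2507 normalized counts, while 908, 924 and 928 had 3043, 3029 and 2996, and the gap to the nearest of them took up more of the group's range than Dixon's 95% critical value for 4 samples allows. Chance marks about 1 in 20 groups in this way, and the values, shares and ratios of all members were screened in every group. The gap was 0.91 of the range for normalized counts but 0.62 for the share of miRNA reads. Without animal 902 and with it, the difference between BPA and control muscle for MIR23B did not pass the test. The MIR27A and MIR23A values of animal 902 in muscle, 1785 and 1526, were also the lowest of the control muscles.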

How the results depend on the processing

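In muscle, MIR27A had the same direction and side of the threshold under every alternative run, and none of the 3 miRNAs was called there by any. With 1 size factor over the 4 tables, the liver differences of MIR27A, MIR23A and MIR23B were 1.74, 1.39 and 1.31 (65 miRNAs called), those in muscle 0.0576, -0.13 and -0.12, and the interactions -1.96, -1.80 and -1.71 (70 called), since that factor moves all miRNAs. Without codes 95 to 97 (chosen after seeing the data) MIR27A in liver was -0.0549 and MIR23A 0.17, with 3 called. With those codes as a covariate in a fit of all 16 libraries, MIR27A and MIR23A in liver were 0.0153 and 0.15. That fit called 15 in liver and 4 in the interaction. The code range as a covariate gave -0.0328, 0.0103 and 0.0587 in liver. These values rest on BPA animals 977 and 984 against control animal 902 alone, as each other code range held a single treatment in liver. edgeR gave 0.0083 for MIR23A in liver. One adjustment over the 4 tables called 15 in liver and 5 in the interaction. The fit with all 16 libraries and no covariate also called 15 in liver. The MIR27A interaction was -0.0040 under edgeR (1 called), -0.11 under quantile normalization and -0.0095 without the 5 most abundant miRNAs. With the animal as a replicate block 0 miRNAs were called for the interaction, MIR27A was 0.02, and no member's call changed. The log2 MIR27A/MIR23A ratio in liver was -0.23 and the MIR23B/MIR23A ratio in muscle -0.19 without codes 95 to 97.

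For muscle minus liver, MIR27A, MIR23A and MIR23B were 0.46, 0.76 and 0.95 under edgeR, 0.28, 0.57 and 0.75 under DESeq2, 0.30, 0.59 and 0.76 after rescaling, -1.08, -0.79 and -0.62 as shares and -1.07, -0.84 and -0.64 thinned to the shallowest library. MIR27A and MIR23B were 0.14 and 0.60 with 1 size factor, MIR23B was 0.29 without the 5 most abundant miRNAs, and MIR23A was -0.0766 without codes 95 to 97 and -0.0541 with them as a covariate. The cause was not tested beyond the shift of the median with each scale.

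Leaving out each animal gave 4 to 15 called in liver and 0 to 9 in the interaction. MIR23A in liver ran from -0.17 to 0.0899, the lowest without 984 and the highest without 910, and MIR27A there from 0.11 to 0.41. The interactions ran from -0.21 to 0.22 for MIR27A and -0.0754 to 0.37 for MIR23A, and the tissue difference from -0.40 to -0.18 for MIR27A and -0.12 to 0.10 for MIR23A. The log2 MIR27A/MIR23A ratio in liver ran from 0.12 to 0.58. The log2 MIR23B/MIR23A ratio ran from -0.20 to 0.0280 in liver and -0.19 to 0.12 in muscle. Depth limits the control livers most, with 94393 miRNA reads in the shallowest.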

Other observations

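The partners of MIR23A and MIR23B in variation between animals were looked up after the values were seen. The deviations of MIR23A from the group means went most closely with MIR152 (Pearson r = 0.82 over 16 libraries, 0.55 over the 13 without codes 95 to 97), MIR143 (0.80 and 0.68), a miRNA of smooth muscle and fibroblasts, and MIR379 (0.71 and 0.62). For MIR27A the same 3 miRNAs had r = -0.64, -0.45 and -0.41 over 16 libraries, and -0.13, 0.27 and 0.13 over the 13. MIRLET7C, which went with MIR27A over 16 libraries, had an r of -0.71 with MIR23A there and 0.0047 over the 13. For each r over the 13, group means were again taken over those libraries alone. All these values are descriptions of libraries that share size factors, with no test.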
